A study of Mus musculus with 17 samples.

Results

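The 10 genes described here encode the cytokine tumour necrosis factor (Tnf), its receptors Tnfrsf1a and Tnfrsf1b, its feedback inhibitor Tnfaip3, and 6 components of interleukin 6 family signalling: the ligands Il6, Osm and Lif and the receptor chains Il6ra, Il6st and Osmr. They were chosen by name, and all 10 were found, each on a single probe set, among the 22180 genes measured. Each of 17 mice gave RNA of periprostatic fat, the adipose tissue around the prostate, for its own microarray (Affymetrix Mouse Gene 2.0 ST). The mice were male C57BL/6J, started their diets at 6 weeks of age and were killed at 25 weeks. The restricted group (HFD+CR, 5 mice) ate a high-fat diet with 60 kcal% fat freely for 12 weeks and then, for 7 weeks, received 70% of what the unrestricted high-fat group ate. The high-fat group (HFD, 6 mice) ate the 60 kcal% diet without limit throughout, and the low-fat group (LFD, 6 mice) ate a diet with 10 kcal% fat without limit. Restriction was studied on the high-fat diet, with no restricted low-fat mice among the samples used here.

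TNF is made mostly by macrophages and binds a pair of receptors: TNFR1 (Tnfrsf1a), found on most cells and carrying a death domain, and TNFR2 (Tnfrsf1b), found mainly on leukocytes and endothelium. Both lead to NF-kappaB, a transcription factor that also switches on Tnfaip3, whose product A20 is a ubiquitin-editing enzyme that shuts the pathway down. Cytokines of the interleukin 6 family share the signalling chain gp130 (Il6st), which pairs with a ligand-specific chain and activates JAK kinases and STAT3. In obese adipose tissue TNF is best known as a macrophage product that dampens insulin action in adipocytes.

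Values are log2 array signals, so a difference of 1 is a 2-fold change. The array medians lay between 7.03 and 7.15, and signals below the median of their array were not shown to be above background. Adipocyte markers were far above that level in every mouse, with list means of 12.4 to 12.8. The mean of a skeletal muscle list was raised in 5 mice, at 9.02 in HFD+CR mouse 2, 7.96 in HFD mouse 6 and 10.3, 9.03 and 7.94 in LFD mice 2, 3 and 5, against at most 7.14 in the others. That of a gland epithelium list was raised in HFD mouse 3 (7.59) and LFD mouse 3 (8.39), against at most 6.04 in the others. Results were also computed without these 6 mice, which leaves 4 HFD+CR, 4 HFD and 3 LFD mice. In whole tissue, fewer cells of a type and less RNA per cell cannot be told apart. Differences are given ± SE, with a limma p adjusted over all 22180 genes, and a gene is said to have risen or fallen where this p was under 0.05.

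In HFD against LFD mice, 6 of the 10 genes rose (Tnf, Tnfrsf1b, Tnfaip3, Il6ra, Il6st and Osmr) and none fell. Over all genes the share called in that comparison was 16.5% upward and 11.3% downward. HFD+CR mice, set against HFD mice, had 2 genes that fell (Tnf and Tnfrsf1b) and none that rose, beside shares over all genes of 11.3% downward and 7.69% upward. Set against LFD mice they had 5 that were higher (Tnfrsf1b, Tnfaip3, Il6ra, Il6st and Osmr) and none that was lower, beside shares of 5.8% upward and 3.28% downward. The median difference of the 10 genes was 0.23, -0.10 and 0.15 in these comparisons, against medians of all genes within 0.01 of 0. Without the 6 mice with raised muscle or gland lists, 4 of the 10 rose in HFD against LFD mice. In that setting 2 fell in HFD+CR against HFD mice and 3 were higher in HFD+CR than in LFD mice. Beside them, 2486 of all 22180 genes rose and 1585 fell in HFD against LFD mice. For HFD+CR against HFD mice, 1058 rose and 1639 fell, and against LFD mice 739 were higher and 479 lower. The comparisons share mice, so their counts are not independent of one another.

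**Figure D1:**
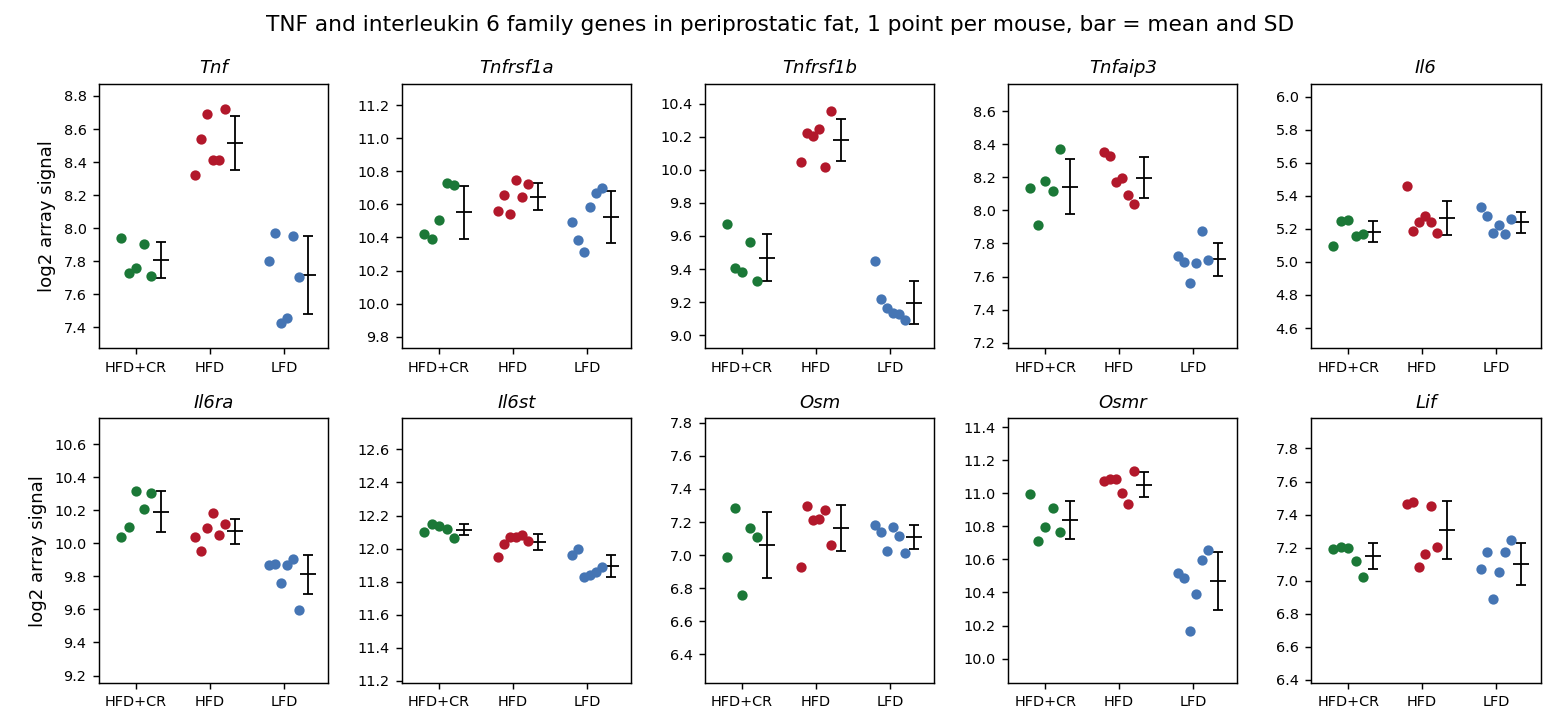
log2 array signal of each gene (y axis, 1.6 log2 units in every panel) in HFD+CR, HFD and LFD mice (x axis), with 1 point per mouse and the mean with SD as a bar. Tnf and Tnfrsf1b were highest in HFD mice, whereas Tnfaip3, Il6ra, Il6st and Osmr were high in both high-fat groups and Il6 did not separate the groups.

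Tnf, the ligand, measured 7.94, 7.73, 7.76, 7.90 and 7.71 in the 5 HFD+CR mice. In HFD mice it ran from 8.32 to 8.72 with a median of 8.48, and in LFD mice from 7.43 to 7.97 with a median of 7.75. Every HFD mouse was above every mouse of the other groups, which overlapped each other. Tnf rose by 0.80 ± 0.10 in HFD against LFD mice, a 1.74-fold change (adjusted p = 5.62e-06). It fell by 0.71 ± 0.10 in HFD+CR against HFD mice (adjusted p = 8.79e-05). Between HFD+CR and LFD mice the difference was 0.09 ± 0.10 (95% interval -0.13 to 0.30, adjusted p = 0.679), so a remaining difference within that interval was not excluded.

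Tnfrsf1b, the gene for TNFR2, had the widest range of group means among the 10 genes. It measured 9.67, 9.40, 9.38, 9.56 and 9.33 in HFD+CR mice, 10.0 to 10.4 with a median of 10.2 in HFD mice, and 9.09 to 9.45 with a median of 9.15 in LFD mice. The HFD mice stood apart from both other groups, and LFD mouse 1 was the only LFD mouse inside the HFD+CR range. Tnfrsf1b rose by 0.99 ± 0.07 in HFD against LFD mice, close to 2-fold (adjusted p = 3.38e-08), and fell by 0.71 ± 0.08 in HFD+CR against HFD mice (adjusted p = 1.03e-05). It was higher by 0.27 ± 0.08 in HFD+CR than in LFD mice (adjusted p = 0.0357). That last call ended in 10 of 28 alternatives, among them leaving out HFD+CR mouse 1 or 4 or LFD mouse 3, 4, 5 or 6, with differences of 0.22 to 0.26 and adjusted p of 0.0614 to 0.109. It also ended without the 6 mice with raised muscle or gland lists (0.26, adjusted p = 0.219).

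Tnfrsf1a, the gene for TNFR1, did not pass in any comparison. Its signal was 10.42, 10.39, 10.51, 10.73 and 10.72 in HFD+CR mice, 10.5 to 10.7 with a median of 10.7 in HFD mice, and 10.3 to 10.7 with a median of 10.5 in LFD mice, and all 3 groups overlapped. The difference was 0.12 ± 0.08 in HFD against LFD mice (95% interval -0.04 to 0.28, adjusted p = 0.265) and -0.09 ± 0.08 in HFD+CR against HFD mice (95% interval -0.26 to 0.07, adjusted p = 0.492). Between HFD+CR and LFD mice it was 0.03 ± 0.08 (adjusted p = 0.886), a value whose sign turned when LFD mouse 3 or HFD+CR mouse 4 or 5 was left out (-0.02 to -0.01).

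The unequal change of gene pairs was tested on their difference within each array, with exact two-sided permutation tests over mice, for 5 pairs in 3 comparisons and p adjusted over these 15 tests. The difference Tnfrsf1b minus Tnfrsf1a was shifted by 0.86 in HFD against LFD mice and by -0.62 in HFD+CR against HFD mice, without overlap of the groups (adjusted p = 0.00648 for each, exact permutation test). Each raw p of 0.00216 is the smallest these group sizes allow. For HFD+CR against LFD mice the shift was 0.24 with overlap (adjusted p = 0.198, exact permutation test). Tnf minus Il6 was tested too, but Il6 lay below the array median in all 17 mice, so its shifts restate the change of Tnf and compare no ligands. They were 0.77 in HFD against LFD mice (adjusted p = 0.00648, exact permutation test) and -0.63 in HFD+CR against HFD mice (adjusted p = 0.0108, exact permutation test), with 0.14 in HFD+CR against LFD mice (adjusted p = 0.334, exact permutation test).

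**Figure D2:**
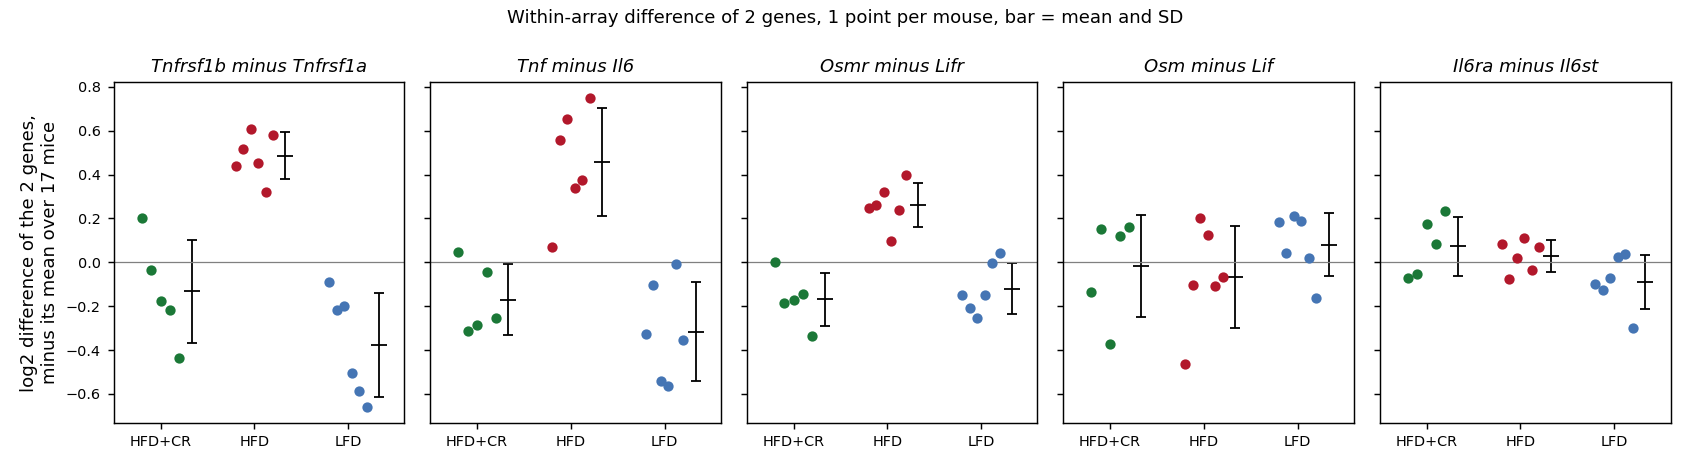
Within-array log2 difference of 2 genes, less its mean over 17 mice (y axis), in HFD+CR, HFD and LFD mice (x axis), with 1 point per mouse and the mean with SD as a bar. HFD mice do not overlap either other group for Tnfrsf1b minus Tnfrsf1a and Osmr minus Lifr, nor for Tnf minus Il6, where Il6 lay below the array median in every mouse, and all groups overlap for Osm minus Lif and Il6ra minus Il6st.

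Tnfaip3 measured 8.14, 7.91, 8.18, 8.12 and 8.37 in HFD+CR mice, 8.04 to 8.36 with a median of 8.19 in HFD mice, and 7.56 to 7.87 with a median of 7.69 in LFD mice. Both high-fat groups lay wholly above the LFD mice and overlapped each other. The gene rose by 0.49 ± 0.07 in HFD against LFD mice (adjusted p = 4.49e-05) and by 0.44 ± 0.08 in HFD+CR against LFD mice (adjusted p = 0.00126). Between HFD+CR and HFD mice it differed by -0.05 ± 0.08 (95% interval -0.21 to 0.11, adjusted p = 0.721), an interval that does not reach the -0.71 of Tnf. Without HFD+CR mouse 2 this difference was 0.00 (adjusted p = 0.985).

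RefSeq promoter windows (build GRCm38.p6, 250 bases before to 50 after a transcription start) matched 9 of the 10 genes by gene ID, and Osm was not among them. Shown are Tnf and Tnfrsf1b, which fell under restriction, Tnfaip3 and Osmr, which rose on the high-fat diet without a call under restriction, and Il6, with no call anywhere. Capitals mark matches, on either strand, to GGG and CC with any 5 bases between them (a loose NF-kappaB motif), TTCNNNGAA (STAT) or TGANTCA (AP-1), and matches that overlap run together.
Tnf (chr17:35201958-35202257, minus strand): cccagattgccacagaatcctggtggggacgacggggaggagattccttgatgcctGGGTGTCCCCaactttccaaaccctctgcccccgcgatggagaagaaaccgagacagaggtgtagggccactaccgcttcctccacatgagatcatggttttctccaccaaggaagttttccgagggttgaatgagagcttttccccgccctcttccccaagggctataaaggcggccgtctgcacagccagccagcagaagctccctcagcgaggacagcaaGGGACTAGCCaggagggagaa
Tnfrsf1b (chr4:145246821-145247120, minus strand): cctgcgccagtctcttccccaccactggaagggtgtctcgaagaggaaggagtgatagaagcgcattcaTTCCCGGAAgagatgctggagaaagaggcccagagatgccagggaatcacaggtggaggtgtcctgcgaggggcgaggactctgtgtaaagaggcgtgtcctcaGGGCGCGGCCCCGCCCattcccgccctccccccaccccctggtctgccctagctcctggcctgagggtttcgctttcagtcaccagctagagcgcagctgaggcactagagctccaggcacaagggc
Tnfaip3 (chr10:19015361-19015660, minus strand): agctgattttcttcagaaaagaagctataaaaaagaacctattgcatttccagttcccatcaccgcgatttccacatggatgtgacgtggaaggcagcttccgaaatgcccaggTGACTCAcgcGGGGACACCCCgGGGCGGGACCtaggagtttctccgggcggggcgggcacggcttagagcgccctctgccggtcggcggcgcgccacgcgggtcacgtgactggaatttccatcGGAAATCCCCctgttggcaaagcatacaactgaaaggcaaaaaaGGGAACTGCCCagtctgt
Il6 (chr5:30012864-30013163, plus strand): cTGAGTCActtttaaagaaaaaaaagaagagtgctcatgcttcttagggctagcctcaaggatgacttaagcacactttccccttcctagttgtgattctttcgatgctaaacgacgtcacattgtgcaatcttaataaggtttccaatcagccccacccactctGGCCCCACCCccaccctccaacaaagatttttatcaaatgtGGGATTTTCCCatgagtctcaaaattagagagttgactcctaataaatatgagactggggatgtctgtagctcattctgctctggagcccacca
Osmr (chr15:6874264-6874563, minus strand): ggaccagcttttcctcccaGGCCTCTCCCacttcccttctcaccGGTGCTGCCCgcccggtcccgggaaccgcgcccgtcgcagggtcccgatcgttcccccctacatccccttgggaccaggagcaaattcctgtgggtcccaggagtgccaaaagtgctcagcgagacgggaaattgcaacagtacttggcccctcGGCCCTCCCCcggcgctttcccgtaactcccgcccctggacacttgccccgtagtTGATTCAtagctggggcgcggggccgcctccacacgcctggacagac
The loose NF-kappaB motif is common, in 50.8% of the 32851 promoter windows of all genes, and its presence in all 9 matched genes is a description. The Tnfaip3 window, the first of its 2 starts in RefSeq, holds GGGGATTTCC on the minus strand of the window at 12 to 3 bases before the start. The Il6 window holds GGGATTTTCC at 44 to 35 bases before the start, beside a signal that did not pass in any comparison. A STAT match stands in the windows of Tnfrsf1b and Tnfrsf1a and in 8.3% of all windows, and an AP-1 match in those of Tnfaip3, Il6, Osmr and Lif and in 7.81% of all windows.

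Of the interleukin 6 family ligands Il6, Osm and Lif, none passed in any comparison by limma, and 1, Lif in HFD against LFD mice, had an unadjusted p under 0.05. Il6 measured 5.10, 5.25, 5.25, 5.15 and 5.17 in HFD+CR mice, 5.18 to 5.46 with a median of 5.24 in HFD mice, and 5.17 to 5.33 with a median of 5.24 in LFD mice. These signals lay below the array median in all 17 mice, so Il6 was not shown to be above background in any group and its differences bound nothing about the cytokine. The difference in HFD against LFD mice was 0.02 ± 0.05 (adjusted p = 0.778), and -0.01 without HFD mouse 1, which had the highest Il6 signal. Il6 differed by -0.08 ± 0.05 in HFD+CR against HFD mice (adjusted p = 0.351) and by -0.06 ± 0.05 in HFD+CR against LFD mice (adjusted p = 0.600).

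Osm encodes oncostatin M, a gp130 cytokine of macrophages and neutrophils. It measured 6.99, 7.29, 6.76, 7.17 and 7.11 in HFD+CR mice, 6.93 to 7.30 with a median of 7.21 in HFD mice, and 7.01 to 7.18 with a median of 7.13 in LFD mice. The signal was above the array median in 3 of 5 HFD+CR, 5 of 6 HFD and 4 of 6 LFD mice, so it was near that level throughout. Osm differed by 0.06 ± 0.08 in HFD against LFD mice (adjusted p = 0.666), by -0.10 ± 0.08 in HFD+CR against HFD mice (adjusted p = 0.468) and by -0.05 ± 0.08 in HFD+CR against LFD mice (adjusted p = 0.810). The last difference was 0.03 without HFD+CR mouse 3, the mouse with the lowest Osm signal.

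Lif encodes leukaemia inhibitory factor and lies beside Osm on chromosome 11. Its signal was 7.19, 7.21, 7.20, 7.12 and 7.02 in HFD+CR mice, 7.08 to 7.48 with a median of 7.33 in HFD mice, and 6.89 to 7.25 with a median of 7.12 in LFD mice. It differed by 0.20 ± 0.08 in HFD against LFD mice (95% interval 0.05 to 0.36, adjusted p = 0.0529). It passed in 7 of 27 alternatives, among them leaving out HFD mouse 3, 4 or 6 or LFD mouse 6 (0.23 to 0.25, adjusted p of 0.0182 to 0.0498). Lif differed by -0.16 ± 0.08 in HFD+CR against HFD mice (adjusted p = 0.201), and in HFD+CR against LFD mice by 0.05 ± 0.08 (adjusted p = 0.795). The changes of Osm and Lif did not differ past the threshold in any comparison (shifts of Osm minus Lif of -0.15, 0.05 and -0.09, adjusted p = 0.309, 0.693 and 0.536, exact permutation tests).

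All 3 receptor chains, Il6ra, Il6st and Osmr, passed in both comparisons with LFD mice. Il6ra, which binds interleukin 6 and hands it to gp130, measured 10.04, 10.10, 10.32, 10.21 and 10.30 in HFD+CR mice, 9.96 to 10.2 with a median of 10.1 in HFD mice, and 9.60 to 9.90 with a median of 9.87 in LFD mice. All mice on the high-fat diet, restricted or not, were above all LFD mice. Il6ra rose by 0.26 ± 0.06 in HFD against LFD mice (adjusted p = 0.00356) and by 0.38 ± 0.06 in HFD+CR against LFD mice (adjusted p = 0.00109). It differed by 0.12 ± 0.06 in HFD+CR against HFD mice (95% interval -0.02 to 0.26, adjusted p = 0.237). The rise in HFD against LFD mice missed the threshold without the 6 mice with raised muscle or gland lists (0.28, adjusted p = 0.0531).

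Il6st, the shared chain gp130, followed the order of Il6ra, highest in HFD+CR mice and lowest in LFD mice. It measured 12.10, 12.15, 12.14, 12.12 and 12.06 in HFD+CR mice, 11.9 to 12.1 with a median of 12.1 in HFD mice, and 11.8 to 12.0 with a median of 11.9 in LFD mice. It rose by 0.22 ± 0.04 in HFD+CR against LFD mice (adjusted p = 0.00265), with no overlap of the mice. In HFD against LFD mice it rose by 0.14 ± 0.04 with overlap (adjusted p = 0.0102), a call that ended without LFD mice 3 and 6 (0.13, adjusted p = 0.0504). Without the 6 mice with raised muscle or gland lists neither call of Il6st held, at 0.21 in HFD+CR against LFD mice (adjusted p = 0.0556) and 0.13 in HFD against LFD mice (adjusted p = 0.133). HFD+CR and HFD mice differed by 0.07 ± 0.04 (95% interval -0.01 to 0.16, adjusted p = 0.259). The changes of Il6ra and Il6st did not differ past the threshold (shifts of Il6ra minus Il6st of 0.12, 0.05 and 0.16, adjusted p = 0.134, 0.567 and 0.134, exact permutation tests).

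Osmr encodes the chain that joins gp130 to form the oncostatin M receptor, and it is known from fibroblasts, adipocytes and other non-immune cells. It measured 11.00, 10.71, 10.80, 10.91 and 10.77 in HFD+CR mice, 10.9 to 11.1 with a median of 11.1 in HFD mice, and 10.2 to 10.7 with a median of 10.5 in LFD mice. Both high-fat groups were wholly above the LFD mice. Of the HFD+CR mice only mouse 1 (11.00) lay within the HFD range, and the others were below every HFD mouse. Osmr rose by 0.58 ± 0.07 in HFD against LFD mice (adjusted p = 6.2e-06), and by 0.37 ± 0.08 in HFD+CR against LFD mice (adjusted p = 0.00449). The difference in HFD+CR against HFD mice, -0.22 ± 0.08 (95% interval -0.37 to -0.06), missed the threshold (adjusted p = 0.0533). It passed in 10 of 28 alternatives, among them leaving out HFD+CR mouse 1, HFD mouse 5 or LFD mouse 3 or 6 (-0.26 to -0.22, adjusted p of 0.0142 to 0.0426).

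Lifr, the chain that pairs with gp130 to receive LIF, was not one of the 10 genes and went another way than Osmr under restriction. It rose by 0.20 ± 0.05 in HFD against LFD mice (adjusted p = 0.00651) and by a further 0.21 ± 0.05 in HFD+CR against HFD mice (adjusted p = 0.00982). The difference Osmr minus Lifr was shifted by 0.38 in HFD against LFD mice and by -0.43 in HFD+CR against HFD mice (adjusted p = 0.00648 for each, exact permutation test), without overlap. Between HFD+CR and LFD mice the shift was -0.05 (adjusted p = 0.568, exact permutation test).

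**Figure D3:**
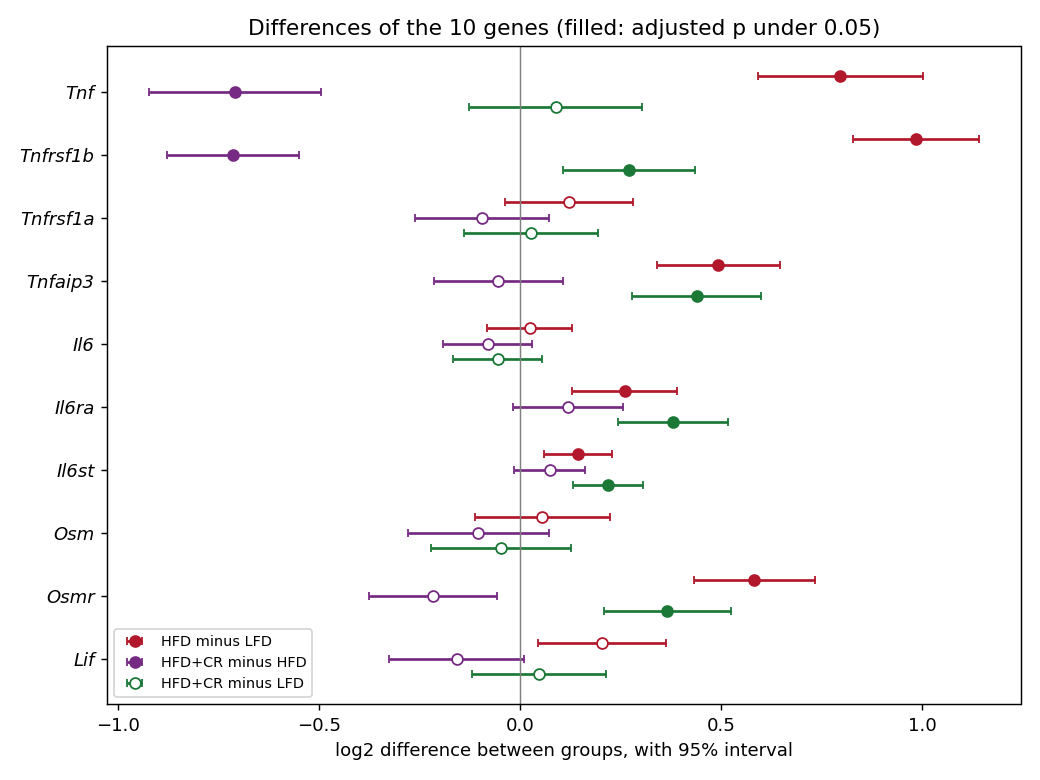
log2 differences of the 10 genes (x axis, with 95% intervals) in HFD minus LFD, HFD+CR minus HFD and HFD+CR minus LFD, 1 row per gene, filled where adjusted p was under 0.05. The intervals of Tnf and Tnfrsf1b in HFD+CR minus HFD lie below -0.49, whereas those of Tnfaip3, Il6ra and Il6st include 0.

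The genes around TNF signalling were read from lists in 7 groups, with 119 genes measured of 128 listed and 3 of them in 2 groups. The counts of these and of the marker lists stand beside the shares over all genes. Those were 16.5% upward and 11.3% downward in HFD against LFD mice, and 7.69% and 11.3% in HFD+CR against HFD mice. In HFD+CR against LFD mice they were 5.8% upward and 3.28% downward. These shares are of all 17 mice. Counts without the 6 mice with raised muscle or gland lists stand beside 2486 rises and 1585 falls of all 22180 genes in HFD against LFD mice. For HFD+CR against HFD mice these were 1058 and 1639, and for HFD+CR against LFD mice 739 and 479. Among 23 measured genes of the TNF receptor complex and TNF shedding, 9 rose and 2 fell in HFD against LFD mice, with a median difference of 0.12. Tnip1, which encodes a partner of A20, rose by 0.64 ± 0.04 (adjusted p = 1.31e-08), and Adam17, the protease that releases TNF from the cell surface, by 0.61 ± 0.07 (adjusted p = 3.37e-06). The adaptor gene Traf5 rose by 0.41 ± 0.10, and Otulin, which removes linear ubiquitin chains, by 0.36 ± 0.06. Of the same list 7 fell and 1 rose in HFD+CR against HFD mice, with a median of -0.06. Adam17 fell by 0.62 ± 0.07 (adjusted p = 2.08e-05), Traf5 by 0.43 ± 0.11 and Tnip1 by 0.35 ± 0.05, whereas Tab3, an adaptor of the kinase TAK1, rose by 0.32 ± 0.06 (adjusted p = 0.000495). Tab3 was 1 of the 2 genes that fell in HFD against LFD mice (-0.31 ± 0.05, adjusted p = 0.000224). Between HFD+CR and LFD mice it differed by 0.01 ± 0.06 (adjusted p = 0.936). Against LFD mice, 2 genes of the list were higher in HFD+CR mice, Tnip1 (0.29 ± 0.05, adjusted p = 0.000546) and Tax1bp1 (0.15 ± 0.04, adjusted p = 0.0311), both A20 partners, and none was lower. Leaving out LFD mice 3 and 6 brought the count in HFD against LFD mice to 6 rises and 1 fall. Without the 6 mice with raised muscle or gland lists it was 4 rises and 1 fall, and in HFD+CR against HFD mice 1 rise and 4 falls. Traf5 then passed in neither of these comparisons (0.44, adjusted p = 0.0598, and -0.41, adjusted p = 0.0766). Tax1bp1 then missed the threshold in HFD+CR against LFD mice (0.18, adjusted p = 0.0678).

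Of 12 measured NF-kappaB subunits and inhibitors, 7 rose and none fell in HFD against LFD mice, and 6 fell and none rose in HFD+CR against HFD mice. The medians were 0.20 and -0.21. Nfkbid, an atypical inhibitor, rose by 0.57 ± 0.08 in HFD against LFD mice and fell by 0.53 ± 0.09 in HFD+CR against HFD mice. Bcl3, a partner of the p50 and p52 subunits, rose by 0.55 ± 0.10 and fell by 0.75 ± 0.11 (adjusted p = 0.000105). Nfkb2, the p100 gene, rose by 0.51 ± 0.06 in HFD against LFD mice, and Nfkbie, an inhibitor, by 0.31 ± 0.09. In HFD+CR against HFD mice Nfkb2 fell by 0.49 ± 0.07 (adjusted p = 5.83e-05). The count of 7 was 4 without LFD mice 2 and 3, HFD+CR mouse 2 and HFD mouse 3, and 4 without LFD mice 3 and 6. Nfkbie was among the lost calls in both settings (0.27, adjusted p = 0.0807, and 0.21, adjusted p = 0.0634), and it also missed the threshold without the 6 mice with raised muscle or gland lists (0.33, adjusted p = 0.0904). Nfkbie fell by 0.57 ± 0.09 in HFD+CR against HFD mice, and the c-Rel gene Rel by 0.60 ± 0.15. The Rel call ended without the 6 mice with raised muscle or gland lists (-0.56, adjusted p = 0.0818). None of the 12 passed in HFD+CR against LFD mice by limma with adjustment over all genes (median -0.01), and 4 had an unadjusted p under 0.05, where the smallest p values belonged to Ikbkg (0.17 ± 0.06, adjusted p = 0.0928) and Rel (-0.41 ± 0.15, adjusted p = 0.0955). Without LFD mouse 6, 2 of the 12 were lower there, and without HFD+CR mouse 3, 1 was higher.

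Of 18 genes known to respond to TNF, 11 rose and none fell in HFD against LFD mice (median 0.48), and 11 fell and none rose in HFD+CR against HFD mice (median -0.36). The monocyte chemoattractant genes Ccl2 and Ccl7 rose by 2.57 ± 0.20 and 2.26 ± 0.23 in HFD against LFD mice, the stromelysin gene Mmp3 by 1.96 ± 0.15 and Tnfaip2 by 1.28 ± 0.10. Restricted mice differed in the other direction: in HFD+CR against HFD mice Ccl2 fell by 1.86 ± 0.21, Ccl7 by 1.68 ± 0.24, Mmp3 by 1.64 ± 0.15 and Tnfaip6, which encodes a hyaluronan-binding protein, by 0.86 ± 0.16. Against LFD mice, 3 were higher in HFD+CR mice: Ccl2 (0.72 ± 0.21, adjusted p = 0.0406), the adhesion molecule gene Vcam1 (0.60 ± 0.09, adjusted p = 0.000567) and Tnfaip2 (0.49 ± 0.11, adjusted p = 0.00672). The Ccl2 call ended without the 6 mice with raised muscle or gland lists (0.53, adjusted p = 0.365). Ccl2 and Ccl7 lie in a chemokine cluster of similar genes. These genes also respond to other signals, so their counts do not measure TNF action.

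Among 27 measured genes of other TNF superfamily ligands and receptors, 7 rose and 1 fell in HFD against LFD mice (median 0.03), and 3 fell and none rose in HFD+CR against HFD mice (median -0.07). Those 3 falls of 27 are near the all-gene share of 11.3%. The RANK gene Tnfrsf11a rose by 1.27 ± 0.11 (adjusted p = 1.39e-07) and fell by 1.12 ± 0.12 in HFD+CR against HFD mice, and the Fn14 gene Tnfrsf12a rose by 0.92 ± 0.10 and fell by 0.94 ± 0.11. Tnfrsf10b, a TRAIL receptor gene, rose by 0.48 ± 0.10 and the death receptor 6 gene Tnfrsf21 by 0.40 ± 0.13. Cd40, a receptor gene of antigen-presenting cells, fell by 0.45 ± 0.11 in HFD+CR against HFD mice. The BAFF gene Tnfsf13b (0.32 ± 0.08, adjusted p = 0.0117) and the death receptor gene Fas (0.28 ± 0.07, adjusted p = 0.0133) were higher in HFD+CR than in LFD mice. These 2 of 27 are near the all-gene share of 5.8%. The Fas call ended without LFD mice 2 and 3, HFD+CR mouse 2 and HFD mouse 3 (0.26, adjusted p = 0.0549) and without the 6 mice with raised muscle or gland lists (0.26, adjusted p = 0.115). The count in HFD+CR against LFD mice turned on LFD mice: without LFD mouse 6 it was 2 higher and 4 lower, without LFD mouse 2 it was 4 higher and 1 lower, and without LFD mice 3 and 6 it was 3 higher and 4 lower. In HFD+CR against HFD mice, 5 fell without LFD mice 2 and 3, HFD+CR mouse 2 and HFD mouse 3. In HFD against LFD mice, 5 rose and none fell without the 6 mice with raised muscle or gland lists.

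Of 10 measured genes of other interleukin 6 family ligands and receptors, 4 rose and 1 fell in HFD against LFD mice, and 2 rose and 2 fell in HFD+CR against HFD mice. Ebi3, a subunit of interleukin 27, rose by 0.51 ± 0.08 and fell by 0.42 ± 0.08 in HFD+CR against HFD mice, and the interleukin 27 receptor gene Il27ra rose by 0.37 ± 0.12 and fell by 0.46 ± 0.13. Leaving out 1 mouse gave Ebi3 differences of 0.46 to 0.55 and -0.46 to -0.37. Over all 28 alternatives they ran from 0.26 to 0.55 and from -0.46 to -0.22, so the smallest came from other settings. Both calls held. Cntfr, the ciliary neurotrophic factor receptor gene, rose by 0.32 ± 0.09 in HFD against LFD mice and by a further 0.39 ± 0.09 in HFD+CR against HFD mice, as Lifr did. Cntfr was higher by 0.71 ± 0.09 (adjusted p = 9.22e-05) and Lifr by 0.41 ± 0.05 (adjusted p = 0.000122) in HFD+CR than in LFD mice, without overlap. Il31ra, an interleukin 31 receptor gene, fell by 0.30 ± 0.10 in HFD against LFD mice (adjusted p = 0.0339). The count in HFD against LFD mice was 3 rises and no fall without HFD mouse 2, HFD mouse 6, LFD mouse 3 or LFD mouse 6, and 2 rises and no fall without the 6 mice with raised muscle or gland lists. Lost without these 6 mice were the calls of Il27ra (0.31, adjusted p = 0.21), Cntfr (0.31, adjusted p = 0.0566) and Il31ra (-0.38, adjusted p = 0.062). In HFD+CR against HFD mice, Il27ra then missed the threshold as well (-0.42, adjusted p = 0.0854).

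Of 14 measured JAK-STAT genes and gp130 feedback genes, 6 rose and 1 fell in HFD against LFD mice (median 0.11), and 4 fell and none rose in HFD+CR against HFD mice (median 0.03). Stat3, the main transcription factor of the pathway, rose by 0.25 ± 0.04 (adjusted p = 8.16e-05) and fell by 0.18 ± 0.04 in HFD+CR against HFD mice (adjusted p = 0.00363). Jak1 rose by 0.26 ± 0.05 and fell by 0.16 ± 0.05. Socs3, a STAT3 target that inhibits gp130, rose by 0.35 ± 0.09 and fell by 0.40 ± 0.09, and the growth hormone feedback gene Socs2 rose by 0.40 ± 0.14. Of the calls in HFD against LFD mice, 4 rises and no fall were left without HFD mouse 2, LFD mouse 3 or LFD mouse 6. In HFD+CR against HFD mice, 2 falls were left without HFD+CR mouse 2, HFD+CR mouse 5 or HFD mouse 3, and 1 without the 6 mice with raised muscle or gland lists. The kinase gene Pim1 fell by 0.33 ± 0.11 in HFD+CR against HFD mice. Without the 6 mice, the falls of Stat3 (-0.17, adjusted p = 0.0513), Jak1 (-0.15, adjusted p = 0.183) and Pim1 (-0.28, adjusted p = 0.148) missed the threshold. Of the list, 1 gene passed in HFD+CR against LFD mice, Pias1, which encodes an inhibitor of activated STAT (0.17 ± 0.05, adjusted p = 0.0255). That count of 1 in 14 is near the all-gene share of 5.8% upward there. None passed there without HFD+CR mouse 1 or 3 or LFD mouse 4 or 6, and 2 passed without HFD mouse 5 or LFD mouse 2 or 5.

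Of 18 genes known to respond to interleukin 6 family cytokines, 9 rose and 1 fell in HFD against LFD mice (median 0.32), and 11 fell and none rose in HFD+CR against HFD mice (median -0.26). Timp1, a metalloproteinase inhibitor gene, rose by 2.87 ± 0.21 in HFD against LFD mice and fell by 2.27 ± 0.22 in HFD+CR against HFD mice. The acute phase genes Lbp and Hp rose by 0.71 ± 0.12 and 0.70 ± 0.10 in HFD against LFD mice, and Junb by 0.58 ± 0.09. The acute phase gene Saa3 fell by 1.62 ± 0.28 in HFD+CR against HFD mice, Bcl3, which stands in the NF-kappaB list too, by 0.75 ± 0.11, and Hp by 0.70 ± 0.11. Saa3 was also lower in HFD+CR than in LFD mice (-1.01 ± 0.28, adjusted p = 0.0295), the 1 gene of the list that passed there. The 11 falls in HFD+CR against HFD mice were 7 without HFD+CR mouse 3, and 7 without the 6 mice with raised muscle or gland lists. Several of these genes respond to interleukin 1 or TNF as well.

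**Figure D4:**
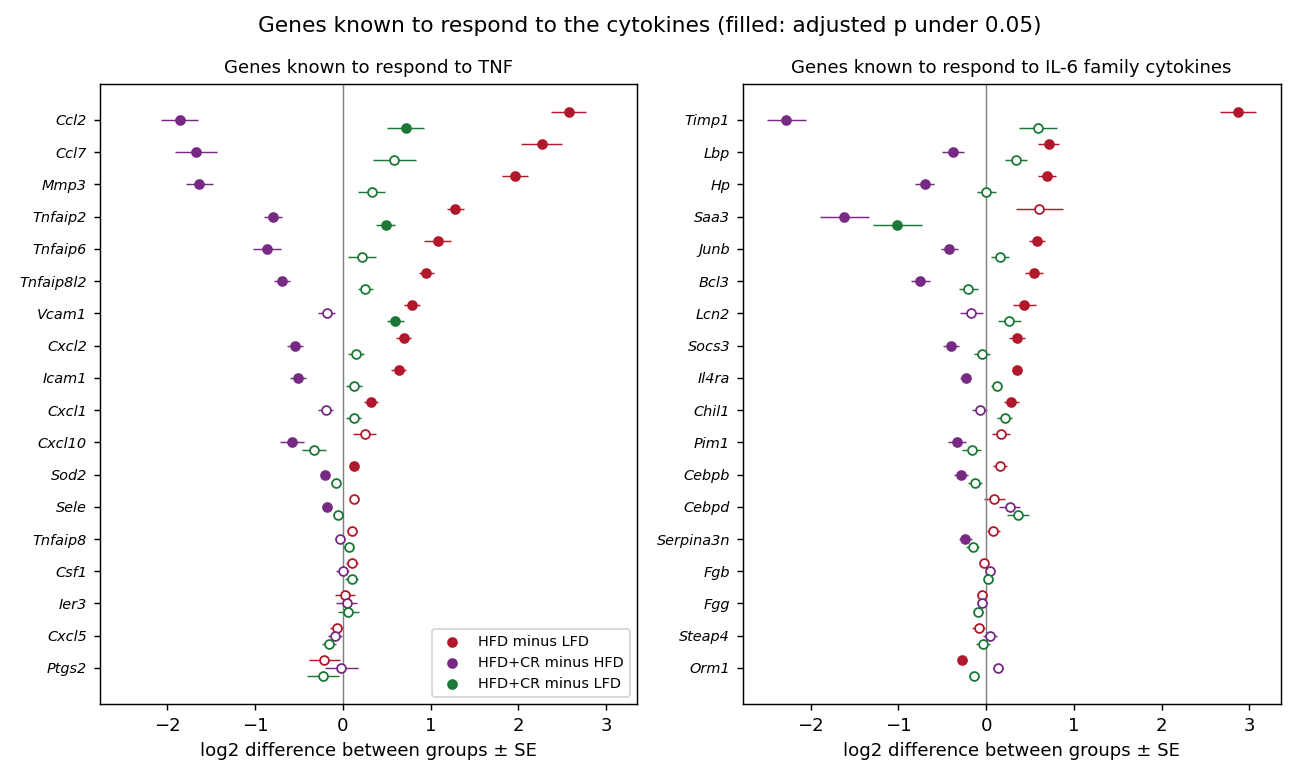
log2 differences ± SE (x axis) of 18 genes known to respond to TNF (left) and 18 known to respond to interleukin 6 family cytokines (right), in HFD minus LFD, HFD+CR minus HFD and HFD+CR minus LFD, filled where adjusted p was under 0.05. Ccl2, Ccl7, Mmp3 and Timp1 have the widest differences, with rises of 1.96 to 2.87 in HFD minus LFD.

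Macrophage markers moved with Tnf and Tnfrsf1b. Of 10 macrophage markers, 8 rose and none fell in HFD against LFD mice, and 8 fell and 1 rose in HFD+CR against HFD mice. The median differences of the list were 0.66 and -0.58 in these comparisons. In HFD+CR against LFD mice 3 were higher (the dendritic and macrophage integrin gene Itgax, Cd68 and Mertk) and none lower, with a median of 0.18. The mean signal of the list was 10.3 to 10.6 in HFD+CR mice, 10.8 to 11.2 in HFD mice and 9.87 to 10.3 in LFD mice. Fibroblast and progenitor markers went the same way, with 6 of 9 higher in HFD than in LFD mice and 4 of 9 lower in HFD+CR than in HFD mice, and list means of 10.9 to 11.3, 11.4 to 11.6 and 11.0 to 11.2 in HFD+CR, HFD and LFD mice. Adipocyte markers went the other way: 7 of 9 fell and 1 rose in HFD against LFD mice, and 6 rose and none fell in HFD+CR against HFD mice. Neutrophil markers, of which 5 or 6 of 9 lay below the array median in every mouse of a group, had 1 rise and 1 fall in each of these comparisons. The part of cell composition in the differences of the 10 genes was not tested.

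**Figure D5:**
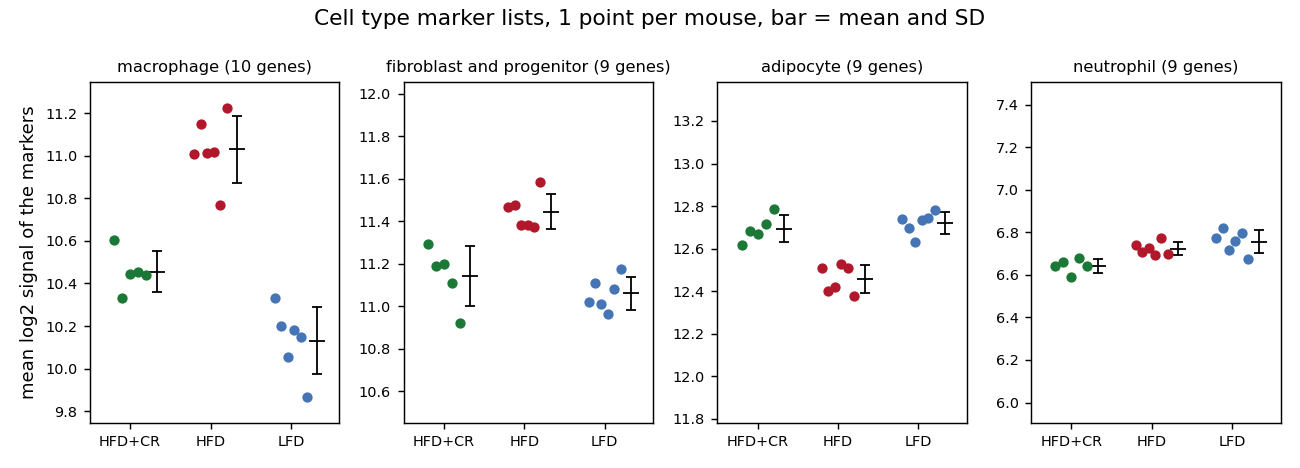
Mean log2 signal of 4 marker lists (y axis, 1.6 log2 units in every panel) in HFD+CR, HFD and LFD mice (x axis), with 1 point per mouse and the mean with SD as a bar. The macrophage list has its highest means in HFD mice (10.8 to 11.2), where the adipocyte list has its lowest.

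Genes with a like pattern were ranked for the 3 genes with the widest range of group means, by the root mean square difference of centred values over the 17 arrays. Predicted genes, small RNAs and immune receptor segments were left out of this ranking by patterns in their symbols. These patterns also left out some other genes, such as those with symbols that begin with Rn. Nearest to Tnfrsf1b were Fcer1g (0.08), Sirpa (0.09) and Ehd4 (0.09), where the SD of Tnfrsf1b over the arrays was 0.46. Nearest to Tnf, whose SD was 0.41, were Osbpl8 (0.12), Snx5 (0.13) and Iqgap1 (0.13). Nearest to Osmr, whose SD was 0.28, were Trp53inp2 (0.08), Stard8 (0.08) and Tril (0.08).

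Some calls of the listed genes turned on single mice. In HFD against LFD mice, the call ended for Il27ra without HFD mouse 2, 3 or 6 or LFD mouse 3 or 6 (0.29 to 0.36, adjusted p of 0.0520 to 0.0629). It ended for Il31ra without HFD mouse 2, 5 or 6 or LFD mouse 3, 4 or 6 (-0.30 to -0.23, adjusted p of 0.0529 to 0.0855) and for Tnfrsf21 without HFD mouse 2 or LFD mouse 2, 4 or 6 (0.35 to 0.38, adjusted p of 0.0507 to 0.0593). Over all single omissions Tnfrsf21 ran from 0.35 to 0.56, with adjusted p of 2.34e-07 to 0.0593. LFD mouse 3 stood high for it (10.46, other LFD mice at most 9.62). Without the 6 mice with raised muscle or gland lists it passed (0.54, adjusted p = 0.000155). For Socs2 the call in this comparison ended without any of HFD mice 1, 2, 3, 4 and 6 and LFD mice 1, 3, 4 and 6 (0.32 to 0.41, adjusted p of 0.0521 to 0.0896). Socs2 passed without the 6 mice with raised muscle or gland lists (0.63, adjusted p = 0.00533). Between HFD+CR and HFD mice, the call of Pim1 ended without HFD+CR mouse 2, 3, 4 or 5 or HFD mouse 1, 2, 3 or 6 (-0.34 to -0.29, adjusted p of 0.0538 to 0.104), and that of Jak1 without HFD+CR mouse 2, 4 or 5 or HFD mouse 1 or 3 (-0.16 to -0.14, adjusted p of 0.0562 to 0.0887). The Pim1 call also ended with probe sets averaged per gene (-0.19, adjusted p = 0.0569).

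In HFD+CR against LFD mice, the call of Ccl2 ended without any of HFD+CR mice 1, 2, 4 and 5, HFD mice 3 and 6 and LFD mice 3, 4, 5 and 6 (0.52 to 0.77, adjusted p of 0.0510 to 0.113). That of Saa3 ended without any of HFD+CR mice 1, 3, 4 and 5 and LFD mice 1, 4 and 6 (-1.04 to -0.88, adjusted p of 0.0525 to 0.0875). Saa3 passed without the 6 mice with raised muscle or gland lists (-1.66, adjusted p = 0.000969). Tax1bp1 lost its call without HFD+CR mouse 1, 2, 3 or 5 or LFD mouse 1, 2, 4 or 6 (0.13 to 0.15, adjusted p of 0.0513 to 0.0793), and Pias1 without HFD+CR mouse 1 or 3 or LFD mouse 4 or 6 (0.15 to 0.16, adjusted p of 0.0567 to 0.0749). Ikbkg passed without HFD+CR mouse 3 (0.21, adjusted p = 0.0331) and Rel without LFD mouse 6 (-0.52, adjusted p = 0.0178).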

How the data were processed

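Periprostatic fat of 17 mice was measured on 1 array each. The deposited values are log2 signals per probe set. Their making involved RMA, limma and R 3.5.0, per the submitters' processing notes, which state no role for any of these. For the array design, a genome build is not given in the sources used here. Precision is limited by the number of arrays. Mice are numbered within each group in the labels. The p-values set group differences against the spread between these mice. With 1 array per mouse, variation of mice and of arrays cannot be told apart.

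Of 33793 probe sets, 23521 had exactly 1 gene symbol, and the brightest per gene left 22180 genes. A model with a mean for each group, on all 17 arrays, used lmFit and eBayes of limma 3.58.1 (R 4.3.3), with no trend, 14 residual degrees of freedom and 3.63 from the prior, and Benjamini-Hochberg adjustment over all genes per comparison. No filter was applied to the genes fitted and no rescaling. The procedure was tested on simulated data. Intervals are 95% intervals from the fit. Gene pairs were tested with exact permutation tests of their within-array difference.

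The 10 genes, the pathway and marker lists and the alternatives were chosen with earlier results of these data known, so no count of them is independent support. Named are the 10 genes, for each list in each comparison up to 4 genes that passed, by size of difference (2 by p if none passed), and the 3 nearest genes of 3 members. Named too are Lifr, of a tested pair, and the macrophage markers higher in HFD+CR than in LFD mice. Some listed genes were not analysed here. The alternatives left out each mouse in turn or sets of mice, and changed the block, filter, probe sets, normalization, arrays fitted, variance model and weights. Promoter sequences are those of RefSeq. Plots were made in Python 3.11.15 with matplotlib 3.10.9.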

Additional observations from a re-analysis of the deposited data

Results flagged for a closer look

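In 71 genes and marker lists, 213 groups of mice were searched for a mouse far from the rest of its group, and 17 (7.98%) held one, where chance gives about 1 in 20. Among the 10 genes, LFD mouse 1 had the highest Tnfrsf1b signal of its group (9.45, against at most 9.22 in the other LFD mice), and HFD mouse 1 the highest Il6 signal (5.46, against at most 5.28 in the other HFD mice), still below the array median. HFD mouse 1 also stood high for Socs3 (8.46, others at most 8.12) and Tnfaip6 (8.58, others at most 7.67), and its endothelium list mean was low (9.77, others at least 10.1). HFD mouse 3 stood high for Pim1 (9.15, others at most 8.96) and for the prostate and gland epithelium list (7.59, others at most 5.90). HFD+CR mouse 1 stood high for Timp1 (8.11, others at most 7.51), and LFD mouse 1 for Tnip1 (8.42, others at most 8.31).

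LFD mouse 3 stood apart for 5 values. It was low for Lbp (11.3, others at least 11.9), Trp53inp2 (10.98, others at least 11.4) and the endothelium list (10.09, others at least 10.3), and high for Tnfrsf21 (10.46, others at most 9.62) and the gland epithelium list (8.39, others at most 6.04). The skeletal muscle list stood high in HFD+CR mouse 2 (9.02, others at most 7.10) and HFD mouse 6 (7.96, others at most 7.14), and the B cell list stood low in LFD mouse 6 (8.03, others at least 8.87).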

How the results depend on the processing

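The falls of Tnf and Tnfrsf1b in HFD+CR against HFD mice, and the rises of Tnf, Tnfrsf1b, Tnfaip3, Il6ra and Osmr in HFD against LFD mice, passed in all 28 alternatives, and so did those of Tnfaip3, Il6ra, Il6st and Osmr in HFD+CR against LFD mice. The number of the 10 genes that passed ran from 5 to 7 in HFD against LFD mice, 2 to 3 in HFD+CR against HFD mice and 4 to 5 in HFD+CR against LFD mice. The number of called gene pair differences was 6 in each of 21 alternatives. Among the 6 are those of Tnf minus Il6, which restate the change of Tnf. Each call was made again in the 15 or 16 alternatives other than single omissions of a mouse outside its comparison. Some of these left the values unchanged. Leaving out LFD mice 3 and 6 did so for HFD+CR minus HFD, and averaging probe sets for pairs of the 10 genes, each on a single probe set. Of the 119 measured pathway genes, 11 passed in HFD+CR against LFD mice, near the share over all genes (2015 of 22180). The pathway count was 18 with array weights and 7 to 14 when 1 mouse was left out, and the cause was not tested. Over the 28 alternatives the all-gene count there ran from 1507 to 2462. Same-numbered mice are different animals, and their deviations from group means correlated above 0.1 in 5 of 16 pairs (-0.11 to 0.41), so the numbers were not taken as pairs. With the mouse number as a replicate block, 7 of the 10 genes passed in HFD against LFD mice (Lif was the added one), 2 in HFD+CR against HFD mice and 5 in HFD+CR against LFD mice.

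Leaving out the 6 mice with raised muscle or gland lists was chosen after the data were seen and is not among the 28. There 3 of the 10 genes passed in HFD+CR against LFD mice, and of all genes 4071 passed in HFD against LFD mice (6165 with all mice), 2697 in HFD+CR against HFD mice (4213) and 1218 in HFD+CR against LFD mice (2015), where fewer mice were fitted. The gene pair tests were not rerun there.

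Signs turned for differences that passed in no alternative. Without LFD mice 2 and 3, HFD+CR mouse 2 and HFD mouse 3, HFD+CR minus LFD was -0.018 for Tnfrsf1a and -0.0016 for Lif. Leaving out 1 mouse gave -0.0156 to 0.0688 for Tnfrsf1a and -0.103 to 0.0293 for Osm in that comparison, -0.0146 to 0.0428 for Il6 in HFD minus LFD, and -0.1112 to 0.0037 for Tnfaip3 and -0.0248 to 0.1426 for Osm minus Lif in HFD+CR minus HFD. Il6 could not be fitted among genes above the median level, nor could Lif and Osm. The signals of Il6, Osm and Lif, near or below the array medians, limit what their differences can show.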
